A study of Homo sapiens with 10 samples.

Results

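The comparison described here set ZNF274 knockout (KO) neural progenitor cultures against wild-type (WT) neural progenitor cultures. Its members were the 4 libraries of the neural progenitor count table, taken by their labels, of 10 RNA-seq libraries in the series, and all 20965 genes that the table lists. The WT group held the libraries S3 and S5 and the KO group the libraries S1 and S2, so n = 2 per group throughout. The parental cells of both groups were H1, an established human embryonic stem cell line. In the KO line the ZNF274 gene had been cut out with Cas9 and a pair of guide RNAs placed on either side of it, after which puromycin-resistant colonies grown from single cells were picked. Both genotypes were then turned into neural progenitor cells (NPCs) through embryoid bodies in a commercial neural induction medium. The labels do not say whether S1 and S2, or S3 and S5, came from separate clones, separate inductions or a single culture, and the study's text speaks of a pair of parental lines behind its averaged NPC expression values, which the labels do not tie to libraries. The p-values below measure only the spread between these libraries, and a difference between the groups cannot be told apart from a difference between clones or inductions.

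ZNF274 is a KRAB zinc finger protein, a DNA-binding repressor that brings a histone H3 lysine 9 methyltransferase complex to its sites. Neural progenitors are the dividing cells of the early neuroepithelium. They carry transcription factors of the SOX, POU3F and LIM-homeobox families, renew as radial glia and give rise to neurons, which add a neuronal cytoskeleton, synaptic proteins and ion channels. Mesenchymal cells instead secrete fibrillar collagen, crosslink it, and hold on to it through integrins coupled to contractile actin bundles, a program that TGF-beta, YAP/TAZ with TEAD factors, and SRF are known to drive. The question asked of these libraries was which functional classes of genes stood higher and which lower once ZNF274 was gone.

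The targeted gene was read first. ZNF274 (ENSG00000171606, plus strand, hg19 chr19:58694396-58724928) was counted 491 and 496 times in WT (S3 and S5), whereas neither KO library held a read of it. Levels are given below in this order, S3 and S5 for WT and S1 and S2 for KO, as CPM, the count relative to the library's total after scaling for composition. On that scale ZNF274 stood at 23.2 and 25.4 CPM in WT and was not detected in KO, at least 172-fold lower when KO is set at a floor of 3 counts averaged over its libraries. The libraries held 18621266 to 23035490 counts, and 3 counts corresponded to 0.135 to 0.154 CPM. Across genes the Spearman correlation was 0.974 between the WT libraries, 0.982 between the KO libraries and 0.920 to 0.924 between groups, as a description of libraries that share most of their genes. The WT pair was the less alike. Of 11054 genes at an average of 5 CPM or more in WT, 403 (3.65%) differed more than 2-fold between S3 and S5, against 63 of 10942 (0.576%) between the KO libraries.

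The label "NPC" was checked against neural progenitor markers. The WT libraries carried SOX2 at 227 and 219 CPM, PAX6 at 87.9 and 78.5 CPM and the intermediate filament gene NES at 2264 and 2996 CPM. In KO, NES stood at 3183 and 3087 CPM and VIM, the other intermediate filament gene of progenitors, at 7089 and 6446 CPM against 7018 and 5803 CPM in WT, and neither was called. SOX2 and PAX6 were lowered in KO, at 12.7 and 21.1 CPM and 25.6 and 41.8 CPM. Of 27 neural progenitor transcription factors tested, 14 were lowered, none was raised and 13 were not called. Their summed level was 1549 and 1710 CPM in WT and 634 and 614 CPM in KO. The markers were thus either lower in KO or not called, and the name NPC is used for the KO cultures below only as their label. In bulk samples, fewer cells of a type and less RNA per cell cannot be told apart.

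A total of 20577 genes had enough counts to test. Calls were made with edgeR's quasi-likelihood test at a Benjamini-Hochberg adjusted p below 0.05 and a fold change above 2. In KO, 1738 genes (8.45% of those tested) were raised and 1721 (8.36%) lowered, ZNF274 among the latter. Without the KO library S1 the counts were 1141 and 943, and without the KO library S2 1263 and 1097. Among the raised genes 900 changed more than 4-fold and 338 more than 16-fold, and among the lowered genes 898 and 313. The raised genes took up 4.47% and 4.62% of all CPM in WT but 14.8% and 14.5% in KO. The lowered genes went from 6.62% and 7.10% in WT to 1.91% and 1.92% in KO. All 3459 called genes had both KO libraries on the same side of both WT libraries, a separation that 67.1% of all tested genes also showed. The median log2 fold change over all tested genes was -0.02, and -0.13 when libraries were scaled by their totals alone. Of the protein-coding genes, 10.5% were raised and 9.66% lowered. Long noncoding RNA genes were more often lowered (7.39%) than raised (3.19%).

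**Figure D1:**
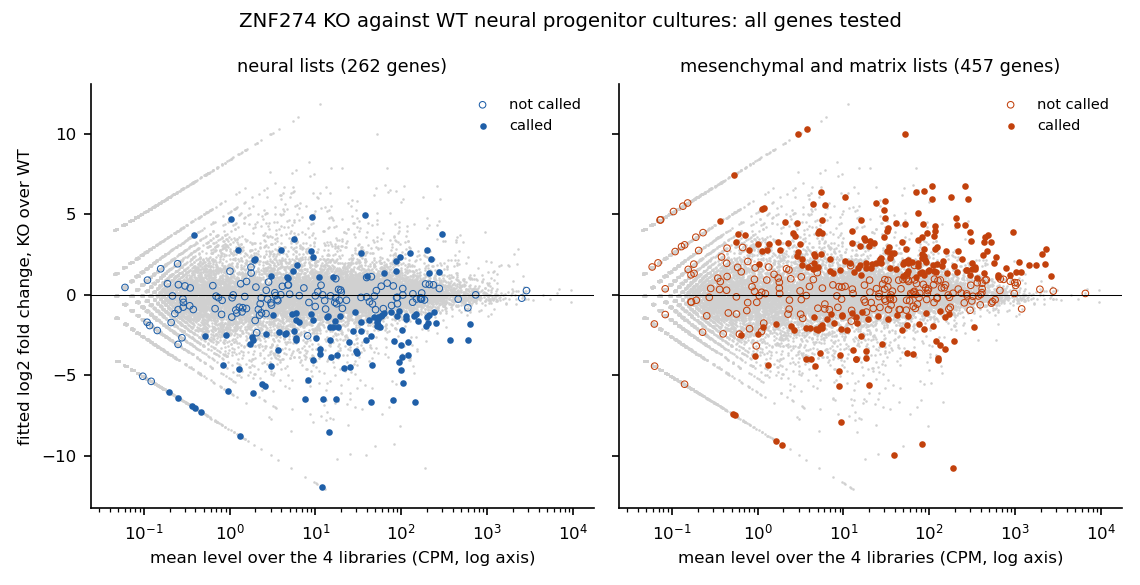
Each grey point is a gene tested, with its mean level over the 4 libraries (CPM, log axis) on the x axis and the fitted log2 fold change of KO over WT on the y axis. The coloured points are the 262 genes of the neural lists on the left, of which 105 were lowered and 30 raised, and the 457 genes of the mesenchymal and matrix lists on the right, of which 179 were raised and 73 lowered. Filled points passed the test and open points did not.

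The 10 largest rises in CPM included genes of the matrix and of the actin cytoskeleton, beside a septin, a kinase anchor and an annexin. COL1A1, which encodes a chain of type I collagen, stood at 644 and 558 CPM in WT and 3457 and 3504 CPM in KO (log2 fold change 2.53 ± 0.12, adjusted p = 3.5e-05; the value after ± is the standard error here and below). CCN2, a secreted matricellular protein known as connective tissue growth factor, stood at 589 and 550.3 CPM in WT and 4159.9 and 3956 CPM in KO (log2 fold change 2.83 ± 0.11, adjusted p = 2.3e-05). TAGLN, the actin-binding protein transgelin, stood at 814 and 1069 CPM in WT and 3502 and 3495 CPM in KO (log2 fold change 1.89 ± 0.14, adjusted p = 0.00023). In each, the KO libraries lay close to each other and far above both WT libraries, but CCN2 lost its call when the spread was estimated over all 10 libraries. FN1, fibronectin, stood at 471 and 399 CPM in WT and 2143 and 1399 CPM in KO (log2 fold change 2.02 ± 0.21, adjusted p = 0.00068). TPM1, a tropomyosin, SEPTIN11, a septin, AKAP12, a kinase anchor, and ANXA2, a membrane-binding annexin, were others of the 10 largest whose calls held with any library left out, with log2 fold changes of 1.83 ± 0.17, 1.81 ± 0.11, 1.76 ± 0.14 and 1.83 ± 0.16, though ANXA2 also lost its call in the fit over 10 libraries. MYH9, non-muscle myosin heavy chain, went from 1381 and 1818 CPM to 3492 and 3715 CPM, but its log2 fold change was 0.99 without the WT library S3, just under the 2-fold threshold. Per kilobase of exon, CCN2 was the most abundant of these in KO, at 1736 CPM per kb against 244 in WT.

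The 10 largest falls in CPM included neuronal genes, enzymes of lipid synthesis, the mitosis genes CENPF and TOP2A, the proteoglycan gene VCAN and the ligand gene WNT8B. Of these, TOP2A lost its call without the WT library S3, and FASN, a fatty acid synthase, without the WT library S5 or the KO library S1. MAP2, a microtubule-associated protein of dendrites, stood at 992 and 1089 CPM in WT and 166 and 129 CPM in KO (log2 fold change -2.82 ± 0.15, adjusted p = 6.1e-05). CNTNAP2, a neurexin-like adhesion protein, stood at 1033 and 926 CPM in WT and 306 and 257 CPM in KO (log2 fold change -1.80 ± 0.13, adjusted p = 0.00017). DPYSL5, a collapsin response mediator of growth cones, stood at 541 and 745 CPM in WT and 85.7 and 98.3 CPM in KO (log2 fold change -2.81 ± 0.18, adjusted p = 0.00011). None of these overlapped between the groups. SCD, which desaturates fatty acids, stood at 1565 and 1564 CPM in WT and 639.5 and 701 CPM in KO (log2 fold change -1.22 ± 0.10, adjusted p = 0.00031). HMGCS1, an early enzyme of cholesterol synthesis, stood at 1496 and 1422 CPM in WT and 586 and 558 CPM in KO (log2 fold change -1.35 ± 0.10, adjusted p = 0.0002). WNT8B, a WNT ligand of the cortical hem, had the steepest fall of the 10, from 372 and 376 CPM in WT to 0.346 and 0.0901 CPM in KO (log2 fold change -10.74 ± 0.28, adjusted p = 1.9e-05). Per kilobase of exon WNT8B stood at 175 CPM per kb in WT, above COL1A1 at 66.7, and at 0.102 in KO.

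To describe how far the calls followed function, 40 classes of genes were read in 4 groups. The classes were chosen with earlier results of these data known, so their shares are a description. Of 262 genes tested in the neural group, 105 were lowered and 30 raised, with a median log2 fold change of -0.87 (-0.81 with genes at the floor in a group set at their bound). Of 457 genes tested in the mesenchymal and matrix group, 179 were raised and 73 lowered, with a median of 0.92 (0.83 with bounds). The shares over all tested genes were 8.45% raised and 8.36% lowered, with a median of -0.02. Over protein-coding genes alone the shares were 10.5% raised and 9.66% lowered. The neural group was therefore called lowered at 40.1% and raised at 11.5%, and the mesenchymal and matrix group raised at 39.2% and lowered at 15.97%. Called genes in the direction against the group were present in both, and the classes below differ in how many they held. Where a class of at least 5 tested genes had none called in a direction by edgeR, DESeq2 and voom called none either, save for 1 astrocyte and oligodendrocyte gene that voom called lowered. In such classes 0 to 4 genes had an unadjusted p below 0.05 in that direction, which 40.3% of all tested genes reached in either direction, except among ribosomal and respiratory chain genes, given below.

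**Figure D2:**
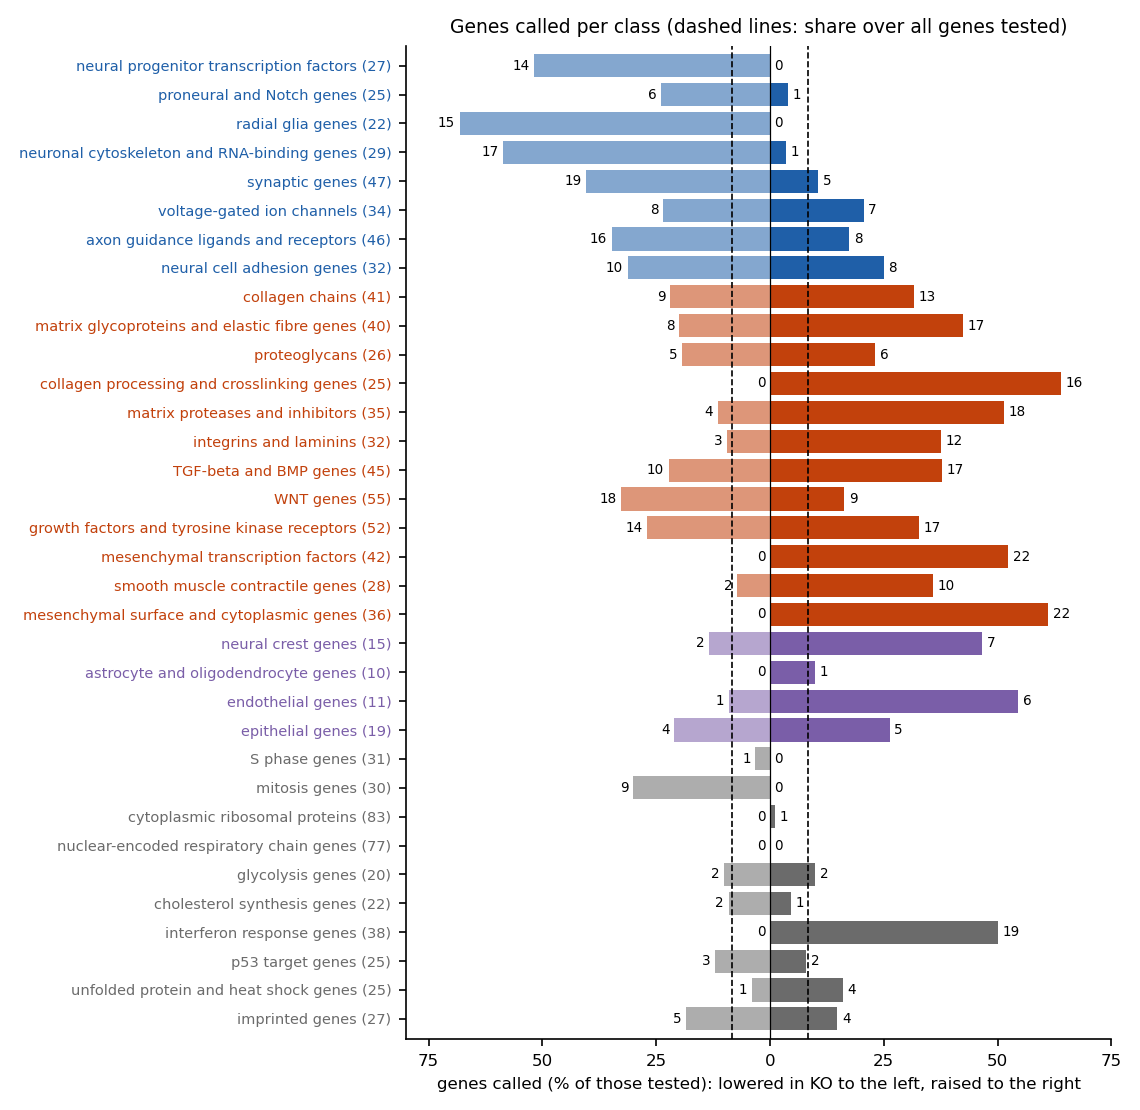
Bars give the percent of tested genes called lowered in KO (left, lighter) and raised in KO (right, darker) in each class with at least 10 tested genes, with the number called beside the bar and the number tested in brackets. Dashed lines mark the shares over all tested genes, 8.36% lowered and 8.45% raised. Neural classes are blue, mesenchymal and matrix classes orange, other cell types purple and general functions grey. Within these 4 groups, the bars of radial glia genes, neuronal cytoskeleton genes and neural progenitor transcription factors reach furthest left. Those of collagen processing genes and mesenchymal surface genes reach furthest right. The lists drawn up after the values had been seen are not part of these groups, whose classes were chosen with earlier results of these data known.

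Among neural progenitor transcription factors, 14 of 27 were lowered and none was raised. SIX3, a homeobox factor of the anterior forebrain, stood at 23.2 and 24.9 CPM in WT while no read of it was counted in KO (adjusted p = 6.3e-05), a difference of at least 169.9-fold. LHX2, a LIM-homeobox factor of cortical progenitors, stood at 19.3 and 29.1 CPM in WT and 0.395 and 0.135 CPM in KO (log2 fold change -6.50 ± 0.45, adjusted p = 0.00016). POU3F3, a POU factor of neural progenitors, stood at 33.4 and 36.2 CPM in WT and 0.494 and 0.27 CPM in KO (log2 fold change -6.50 ± 0.29, adjusted p = 3.3e-05). In these genes both KO libraries were close to the floor while both WT libraries were well above it. SOX1, a SOXB1 factor that marks the neural plate, was also near the floor in KO (0.0494 and 0.0901 CPM), but its WT libraries stood at 7.29 and 50.6 CPM, and the call did not hold under voom or a robust fit. SOX11 (126 and 189 CPM in WT and 115 and 114 CPM in KO, adjusted p = 0.1) and ZIC1 (170.3 and 208 CPM in WT and 164 and 148 CPM in KO, adjusted p = 0.16), factors of young neurons and of the dorsal neural tube, did not pass the test.

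Radial glia genes were lowered in 15 of 22 cases, with none raised and a median of -1.64. TTYH1, a membrane protein of radial glia, stood at 146 and 168 CPM in WT and 2.12 and 1.22 CPM in KO (log2 fold change -6.56 ± 0.24, adjusted p = 2.3e-05). ID4, an inhibitor of basic helix-loop-helix factors, stood at 93.9 and 80.3 CPM in WT and 5.53 and 2.84 CPM in KO (log2 fold change -4.39 ± 0.29, adjusted p = 0.00014). LIX1 stood at 154 and 229.8 CPM in WT and 6.22 and 8.56 CPM in KO (log2 fold change -4.69 ± 0.25, adjusted p = 6.4e-05). Both KO libraries lay far below both WT libraries in each. PTPRZ1, a receptor-type tyrosine phosphatase, stood at 119 and 295 CPM in WT and 5.78 and 3.51 CPM in KO (log2 fold change -5.48 ± 0.49, adjusted p = 0.00041), and here the WT libraries themselves differed. CDH2, the neural cadherin, was lower in both KO libraries (689 and 834 CPM in WT and 424 and 443 CPM in KO, adjusted p = 0.0032) by less than the 2-fold that a call required.

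Of 25 proneural and Notch pathway genes, 6 were lowered and 1 raised. HEY1, a repressor downstream of Notch, stood at 10.8 and 7.73 CPM in WT and 1.93 and 2.03 CPM in KO (log2 fold change -2.23 ± 0.30, adjusted p = 0.0021), while the receptors NOTCH2 (267 and 216 CPM in WT and 327 and 303 CPM in KO, adjusted p = 0.065) and NOTCH3 (176 and 197 CPM in WT and 169 and 140.2 CPM in KO, adjusted p = 0.16) were not called. The count of lowered genes was 2 without the KO library S1 and 3 without S2.

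Neuronal cytoskeleton and RNA-binding genes were lowered in 17 of 29 cases and raised in 1. GAP43, a membrane protein of growth cones, stood at 231 and 123 CPM in WT and 27.9 and 13.3 CPM in KO (log2 fold change -3.11 ± 0.41, adjusted p = 0.0019). KIF5C, a kinesin motor of axons, stood at 146 and 192 CPM in WT and 36 and 36.4 CPM in KO (log2 fold change -2.22 ± 0.16, adjusted p = 0.00017). Both fell in both KO libraries, as MAP2 and DPYSL5 did above, but the call of GAP43 did not hold under a robust fit. TUBA1A, an alpha-tubulin (2851 and 2605 CPM in WT and 2554 and 2147 CPM in KO, adjusted p = 0.23), and STMN1, a regulator of microtubules (892 and 586 CPM in WT and 755 and 714 CPM in KO, adjusted p = 0.98), overlapped or nearly overlapped between groups and were not called.

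Synaptic genes had 19 of 47 lowered and 5 raised. The lowered members came from both sides of the synapse. NLGN3, a postsynaptic neuroligin, stood at 54.6 and 55.8 CPM in WT and 5.24 and 4.64 CPM in KO (log2 fold change -3.48 ± 0.16, adjusted p = 3.7e-05). GRIN2B, a subunit of the NMDA receptor, stood at 9.28 and 22.7 CPM in WT and 0.543 and 0.27 CPM in KO (log2 fold change -5.29 ± 0.58, adjusted p = 0.00091). Neurexins, the presynaptic partners of neuroligins, split. NRXN2 fell, from 26 and 9.57 CPM to 1.09 and 1.08 CPM (log2 fold change -4.03 ± 0.52, adjusted p = 0.0017), while NRXN3 rose, from 2.51 and 2.2 CPM to 13.9 and 17.2 CPM (log2 fold change 2.72 ± 0.25, adjusted p = 0.00048). Without the KO library S2 only 2 synaptic genes were raised, and without S1 3. The scaffold gene DLG4 (19.5 and 17.2 CPM in WT and 17.1 and 14.9 CPM in KO, adjusted p = 0.46) and the vesicle gene VAMP2 (25.6 and 26 CPM in WT and 21.7 and 18.8 CPM in KO, adjusted p = 0.15) were not called.

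Voltage-gated ion channels moved in both directions, with 8 of 34 lowered and 7 raised. KCNA1, a delayed-rectifier potassium channel of axons, rose from 0.426 and 0.819 CPM to 16.8 and 18.7 CPM (log2 fold change 4.83 ± 0.34, adjusted p = 0.00017). SCN9A, a sodium channel known from sensory neurons, rose from 0.521 and 1.38 CPM to 9.43 and 11.4 CPM (log2 fold change 3.45 ± 0.45, adjusted p = 0.0018). Both kept their calls with any library left out, but the counts for the class fell to 4 lowered and 3 raised without the KO library S1 and to 5 and 4 without S2.

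Axon guidance and neural adhesion genes were likewise divided. Of 46 guidance ligands and receptors, 16 were lowered and 8 raised, the latter 13 without the WT library S3. Among semaphorins, the transmembrane SEMA6A fell (147 and 212 CPM in WT and 11.6 and 8.2 CPM in KO; log2 fold change -4.19 ± 0.24, adjusted p = 8.2e-05), whereas the secreted SEMA3E rose (3.6 and 1.18 CPM in WT and 77.7 and 70.8 CPM in KO; log2 fold change 4.94 ± 0.41, adjusted p = 0.0003). Among receptors, ROBO2, which binds Slit proteins, fell (50.2 and 84.4 CPM in WT and 10.5 and 8.6 CPM in KO; log2 fold change -2.82 ± 0.27, adjusted p = 0.00051), and PLXNA2, which binds semaphorins, rose (35.6 and 35.1 CPM in WT and 223 and 206 CPM in KO; log2 fold change 2.60 ± 0.11, adjusted p = 3e-05). Of 32 neural adhesion genes 10 were lowered and 8 raised. LRRN1, a leucine-rich repeat membrane protein, fell from 203 and 177 CPM to 12.9 and 12.7 CPM (log2 fold change -3.90 ± 0.13, adjusted p = 1.9e-05). TENM2, a teneurin, rose from 26.8 and 53.7 CPM to 556 and 550.5 CPM (log2 fold change 3.78 ± 0.31, adjusted p = 0.00029). L1CAM, an immunoglobulin-family adhesion molecule of axons, rose from 82.5 and 72.4 CPM to 382 and 343 CPM (log2 fold change 2.23 ± 0.12, adjusted p = 6.7e-05). NCAM1, often used as a neural surface marker, did not pass the test (131 and 79.2 CPM in WT and 107 and 101 CPM in KO, adjusted p = 0.96).

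**Figure D3:**
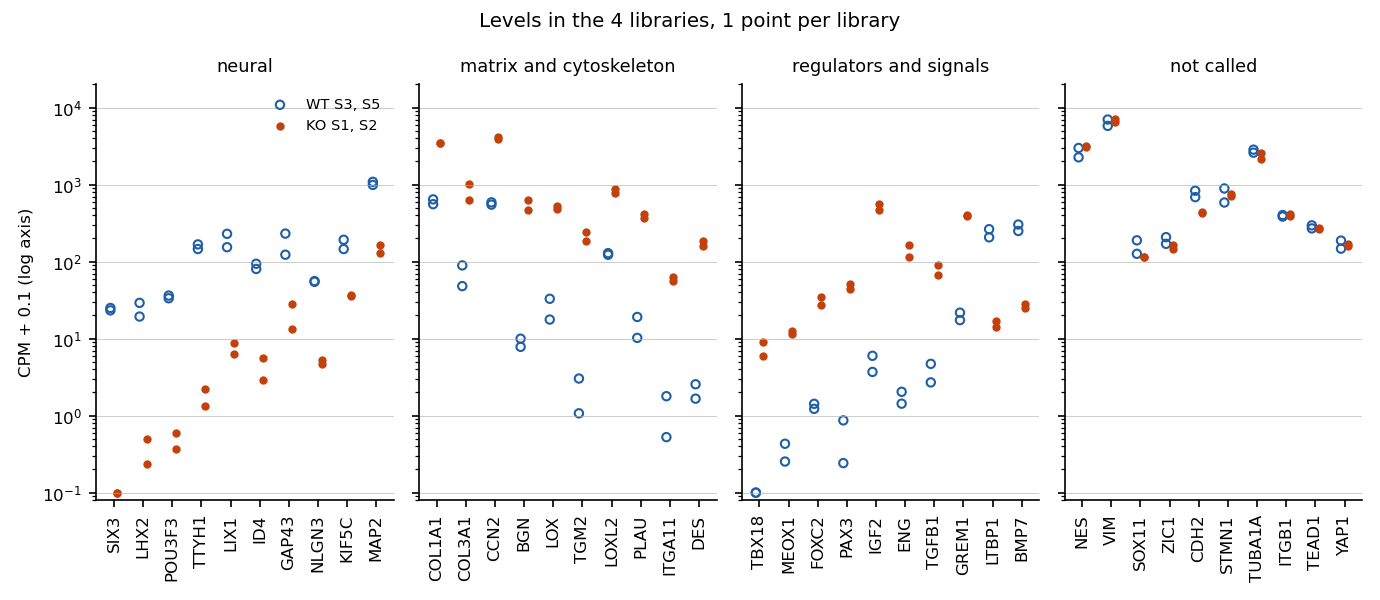
Each point is a library and the y axis is its level (CPM + 0.1, log axis), with WT S3 and S5 as open blue circles and KO S1 and S2 as filled orange circles. The first panel holds lowered neural genes, the second raised matrix and cytoskeletal genes, the third regulators and signals, of which LTBP1 and BMP7 are lowered, and the fourth genes that were not called. In the first 3 panels, which hold called genes only, the KO circles of each gene lie entirely on the same side of the WT circles. All 3459 called genes showed that separation, as did 67.1% of all tested genes.

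Collagen genes were called in both directions. Of 41 chains, 13 were raised and 9 lowered, with a median log2 fold change of 0.41. Their summed level was 4818 and 3515 CPM in WT and 9392 and 8497 CPM in KO. The fibrillar chain COL3A1 rose from 89.3 and 48 CPM to 1025 and 634 CPM (log2 fold change 3.59 ± 0.35, adjusted p = 0.00054), and COL8A1, a short-chain collagen of vessel walls, from 71 and 91 CPM to 813 and 781 CPM (log2 fold change 3.30 ± 0.15, adjusted p = 3.3e-05). COL2A1, the fibrillar chain of cartilage that is also made by the early neuroepithelium, fell from 445 and 234 CPM to 59.4 and 32.4 CPM (log2 fold change -2.89 ± 0.37, adjusted p = 0.0018), and COL4A6, a basement membrane chain, from 139.8 and 99.8 CPM to 10.5 and 8.38 CPM (log2 fold change -3.67 ± 0.21, adjusted p = 8e-05). COL1A2, the partner chain of COL1A1 in type I collagen, overlapped between the groups and was not called (1317 and 589.6 CPM in WT and 1198 and 808 CPM in KO, adjusted p = 0.9). The count of lowered collagens was 5 without either KO library.

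The enzymes that process and crosslink collagen were called only upward, with 16 of 25 raised, none lowered and all 25 fitted fold changes above 0 (median 1.51). LOX, a lysyl oxidase, stood at 32.9 and 17.6 CPM in WT and 526 and 476 CPM in KO (log2 fold change 4.31 ± 0.29, adjusted p = 0.00014). LOXL2, a relative of LOX, stood at 123 and 129 CPM in WT and 875 and 775 CPM in KO (log2 fold change 2.71 ± 0.11, adjusted p = 2.8e-05). TGM2, a transglutaminase, stood at 2.93 and 0.972 CPM in WT and 239.7 and 187 CPM in KO (log2 fold change 6.75 ± 0.40, adjusted p = 8.4e-05). All 3 showed a wide gap between the groups. SERPINH1, the collagen chaperone (378 and 344 CPM in WT and 497 and 434 CPM in KO, adjusted p = 0.052), and FKBP10, a prolyl isomerase (240.0 and 216 CPM in WT and 255 and 234 CPM in KO, adjusted p = 0.55), were not called.

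Among matrix glycoproteins and elastic fibre genes 17 of 40 were raised and 8 lowered, the latter 5 without either KO library. TGFBI, a secreted integrin ligand, stood at 8.66 and 6.6 CPM in WT and 189 and 136 CPM in KO (log2 fold change 4.41 ± 0.22, adjusted p = 4.8e-05), against FREM2, a basement membrane protein, at 25.1 and 28.3 CPM in WT and 2.07 and 1.22 CPM in KO (log2 fold change -4.02 ± 0.29, adjusted p = 0.00018). SPARC, an abundant collagen-binding protein, was not called (1811 and 1627 CPM in WT and 2327 and 2017 CPM in KO, adjusted p = 0.07). Proteoglycans had 6 of 26 raised and 5 lowered, the latter 3 without the KO library S1. BGN, the small leucine-rich proteoglycan biglycan, stood at 9.89 and 7.73 CPM in WT and 629 and 474 CPM in KO (log2 fold change 5.96 ± 0.21, adjusted p = 2.1e-05). VCAN, versican, moved the other way, from 558 and 500.5 CPM to 135 and 125 CPM (log2 fold change -2.02 ± 0.11, adjusted p = 6.9e-05).

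CCN2 is a textbook target of YAP/TAZ and TEAD, so the 250 bases before its start were read from the RefSeq promoter table and are shown with each GGAATG or CATTCC, the core letters of a TEAD site on either strand, in capitals. The stretch lies on the minus strand at hg19 chr6:132272513-132272762, found by exact match of the whole sequence to that build, and is printed 5′ to 3′.
CCN2: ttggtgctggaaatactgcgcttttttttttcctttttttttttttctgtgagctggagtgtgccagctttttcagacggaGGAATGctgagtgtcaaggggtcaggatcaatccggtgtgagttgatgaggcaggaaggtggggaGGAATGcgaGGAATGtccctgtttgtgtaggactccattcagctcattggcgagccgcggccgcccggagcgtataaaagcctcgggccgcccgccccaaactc
It held 3 matches, 169, 104 and 95 bases before the start. Of the 12071 protein-coding genes tested that matched a promoter by symbol, 9.61% held the letters in the same window, as did 10.8% of 1246 raised and 9.36% of 1100 lowered genes. In the matrix glycoprotein class 8 of 31 promoters held them (25.8%), among them 4 of 13 raised (30.8%) and 0 of 5 lowered. The others that held them belonged to genes not called, and a tie between the letters and a rise was not tested. A match is a description of letters and not a bound site. The genes of YAP1 (188 and 148 CPM in WT and 162 and 168 CPM in KO, adjusted p = 0.92) and TEAD1 (270.2 and 296 CPM in WT and 267 and 272 CPM in KO, adjusted p = 0.64) themselves were not called.

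Matrix proteases and their inhibitors had 18 of 35 raised and 4 lowered. PLAU, the urokinase plasminogen activator, stood at 19 and 10.1 CPM in WT and 415 and 365 CPM in KO (log2 fold change 4.74 ± 0.29, adjusted p = 9.7e-05). PLAUR, its receptor, stood at 2.89 and 5.73 CPM in WT and 148 and 141 CPM in KO (log2 fold change 5.08 ± 0.29, adjusted p = 7.1e-05). Enzyme and receptor thus both rose in both KO libraries. MMP2, a gelatinase, went against the class, from 181 and 238 CPM to 37.1 and 21.3 CPM (log2 fold change -2.85 ± 0.27, adjusted p = 0.00051). Integrins and laminins had 12 of 32 raised and 3 lowered. ITGA11, a collagen-binding alpha subunit, rose from 0.426 and 1.69 CPM to 62.4 and 56.8 CPM (log2 fold change 5.83 ± 0.44, adjusted p = 0.00022). ITGA1, another, rose from 13.2 and 15 CPM to 268 and 172 CPM (log2 fold change 3.96 ± 0.23, adjusted p = 8.5e-05). ITGB1, the beta subunit that both pair with, was not called (385 and 403 CPM in WT and 412 and 387 CPM in KO, adjusted p = 0.91). ITGB8, a beta subunit of neuroepithelium, fell (18.3 and 25.8 CPM in WT and 7.36 and 5.45 CPM in KO; log2 fold change -1.78 ± 0.26, adjusted p = 0.0027).

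The signalling classes were mixed, and their ligands and inhibitors are given separately. Of 45 TGF-beta and BMP pathway genes 17 were raised and 10 lowered. The ligand TGFB1 rose from 2.6 and 4.61 CPM to 91.4 and 66 CPM (log2 fold change 4.45 ± 0.30, adjusted p = 0.00014), and ENG, the coreceptor endoglin, from 1.94 and 1.33 CPM to 165 and 116 CPM (log2 fold change 6.41 ± 0.27, adjusted p = 2.8e-05). GREM1, a secreted BMP antagonist, rose from 17.3 and 21.7 CPM to 391 and 405 CPM (log2 fold change 4.36 ± 0.15, adjusted p = 1.9e-05), whereas NOG, another, fell from 12.5 and 5.27 CPM to 0.445 and 0.36 CPM (log2 fold change -4.45 ± 0.54, adjusted p = 0.0014). The ligand BMP7 fell from 303 and 250.2 CPM to 28.2 and 24.6 CPM (log2 fold change -3.39 ± 0.15, adjusted p = 3e-05). LTBP1 and LTBP2, latent TGF-beta binding proteins of the matrix, moved apart, LTBP1 to 14 and 16.9 CPM from 207 and 264 (log2 fold change -3.93 ± 0.18, adjusted p = 3.3e-05) and LTBP2 to 215 and 203 CPM from 1.42 and 5.43 (log2 fold change 5.95 ± 0.48, adjusted p = 0.00028).

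Of 55 WNT pathway genes 18 were lowered and 9 raised. RSPO2 and RSPO3, R-spondins that enhance WNT signalling from outside the cell, were close to the floor in KO where they had been higher in WT. RSPO3 stood at 120.1 and 33.4 CPM in WT and 0.148 and 0 CPM in KO (adjusted p = 0.00065) and RSPO2 at 283 and 42 CPM in WT and 0.296 and 0.225 CPM in KO (adjusted p = 0.0018). In both, the WT library S3 was above S5 and both KO libraries below either, and under voom neither passed the test, nor did RSPO2 under a robust fit. RSPO4 went the other way, from 0.805 and 0.512 CPM to 10.1 and 8.92 CPM (log2 fold change 3.83 ± 0.35, adjusted p = 0.00044), as did DKK2, a secreted modulator of the WNT coreceptor (31.9 and 23.7 CPM in WT and 148 and 126 CPM in KO; log2 fold change 2.30 ± 0.17, adjusted p = 0.00022), and ROR2, a receptor tyrosine kinase that binds WNT ligands (2.89 and 4.5 CPM in WT and 38.7 and 34.5 CPM in KO; log2 fold change 3.31 ± 0.25, adjusted p = 0.00021). LRP6, the coreceptor itself, was not called (58.6 and 66.8 CPM in WT and 77.5 and 61.6 CPM in KO, adjusted p = 0.5).

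Of 52 growth factor and receptor tyrosine kinase genes 17 were raised and 14 lowered, the latter 9 without the KO library S2. IGF2, a fetal growth factor, had the steepest rise of the class, from 3.6 and 5.89 CPM to 566 and 474 CPM (log2 fold change 6.78 ± 0.25, adjusted p = 2.3e-05). HBEGF, a ligand of the EGF receptor, rose from 22.5 and 11.8 CPM to 228 and 197 CPM (log2 fold change 3.62 ± 0.29, adjusted p = 0.00027). On the neural side of the class, NTRK3, the neurotrophin-3 receptor, fell from 25.2 and 41.5 CPM to 2.22 and 3.56 CPM (log2 fold change -3.52 ± 0.33, adjusted p = 0.00051), and ERBB4, a neuregulin receptor, from 18.1 and 35.2 CPM to 1.48 and 1.89 CPM (log2 fold change -3.97 ± 0.38, adjusted p = 0.00052). MDK, midkine, was lower in both KO libraries (383 and 407 CPM in WT and 214 and 192 CPM in KO, adjusted p = 0.001) by less than the 2-fold threshold.

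Mesenchymal transcription factors were called only upward, with 22 of 42 raised and none lowered (median 2.22, or 2.06 with bounds). The count was 14 without the KO library S1. TBX18, a T-box factor of mural and somitic mesenchyme, was not counted in either WT library and stood at 9.04 and 5.9 CPM in KO (adjusted p = 0.00048), a difference of at least 50.5-fold. FOXC2, a forkhead factor of paraxial mesoderm, stood at 1.33 and 1.13 CPM in WT and 26.9 and 34.7 CPM in KO (log2 fold change 4.64 ± 0.25, adjusted p = 6.3e-05). MEOX1, a somite homeobox factor, stood at 0.331 and 0.154 CPM in WT and 11.6 and 12.7 CPM in KO (log2 fold change 5.59 ± 0.39, adjusted p = 0.00017). All 3 were low in WT and higher in both KO libraries. Of the class, 12 members averaged 5 CPM or more in WT, and 8 of those tested were at the floor in a group. Members that low in WT had little room to be called lowered, so the lack of lowered genes was partly set by the WT level. Per kilobase of exon, FOXC2 at 10.6 CPM per kb stood above TBX18 at 0.863 in KO.

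Mesenchymal surface and cytoplasmic genes were raised in 22 of 36 cases and lowered in none. LGALS1, the galectin of fibroblasts, stood at 38.7 and 36.6 CPM in WT and 555 and 561 CPM in KO (log2 fold change 3.89 ± 0.11, adjusted p = 1.9e-05). CD248, a surface protein of pericytes and stromal cells, stood at 14.6 and 10.9 CPM in WT and 173 and 134 CPM in KO (log2 fold change 3.59 ± 0.20, adjusted p = 7.1e-05). S100A11, a calcium-binding protein, stood at 30.5 and 79.7 CPM in WT and 603 and 510.2 CPM in KO (log2 fold change 3.34 ± 0.41, adjusted p = 0.0014). In each, both KO libraries lay above both WT libraries. VIM, the filament gene most often used to mark mesenchyme and also a gene of progenitors, was among those not called, with values given above, as was ANXA6 (690.0 and 519 CPM in WT and 755 and 697 CPM in KO, adjusted p = 0.23).

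Smooth muscle contractile genes had 10 of 28 raised and 2 lowered. DES, the muscle filament desmin, stood at 1.56 and 2.46 CPM in WT and 185 and 159 CPM in KO (log2 fold change 6.42 ± 0.22, adjusted p = 1.9e-05). ACTG2, a smooth muscle actin, stood at 18.2 and 38.8 CPM in WT and 221 and 183 CPM in KO (log2 fold change 2.83 ± 0.33, adjusted p = 0.0011). Both were low in WT and above it in each KO library. ACTC1, the cardiac actin that also appears in smooth muscle, moved the other way, from 19.3 and 14.3 CPM to 1.28 and 1.22 CPM (log2 fold change -3.74 ± 0.28, adjusted p = 0.00022). MYH10 (1551 and 1541 CPM in WT and 826 and 855 CPM in KO, adjusted p = 0.00089) and FLNA (2373 and 2771 CPM in WT and 2914 and 3087 CPM in KO, adjusted p = 0.19), a non-muscle myosin and a filamin, were not called.

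SRF binds the CArG box, and the promoter of ACTG2 is a known example. The 250 bases before its start lie on the plus strand at hg19 chr2:74119885-74120134 by exact match, and are shown with CArG boxes in capitals.
ACTG2: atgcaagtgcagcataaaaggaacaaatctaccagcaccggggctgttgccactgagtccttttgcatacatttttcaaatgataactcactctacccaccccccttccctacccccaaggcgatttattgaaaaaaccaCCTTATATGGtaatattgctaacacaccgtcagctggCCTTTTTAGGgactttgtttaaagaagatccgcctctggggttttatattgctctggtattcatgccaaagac
It held 2 CArG boxes, 110 and 73 bases before the start. The motif reads the same way on both strands. Over all 12071 promoters 1.16% held a CArG box, and 6 of 24 did in the contractile class, among them those of ACTC1, which fell, and of FLNA, which was not called. Among the genes of the class with a matched promoter, 1 of 7 raised, ACTG2 itself, and 2 of 2 lowered held one. Over all raised genes the share was 1.61% and over all lowered genes 1.64%.

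The libraries were also read for other cell types that such cultures could hold. Neural crest genes had 7 of 15 raised and 2 lowered, the former 4 without the KO library S1. PAX3, a paired-box factor of crest and dorsal somite, stood at 0.142 and 0.768 CPM in WT and 43.6 and 51.6 CPM in KO (log2 fold change 6.72 ± 0.46, adjusted p = 0.00015), and MITF, the melanocyte regulator, at 1.23 and 1.43 CPM in WT and 9.43 and 10.5 CPM in KO (log2 fold change 2.90 ± 0.29, adjusted p = 0.0006). SOX5, a crest and cartilage factor, fell from 18.4 and 30.2 CPM to 4.99 and 2.43 CPM (log2 fold change -2.71 ± 0.39, adjusted p = 0.0027). The defining crest factors FOXD3 (0 and 0 CPM in WT and 0.494 and 0.0901 CPM in KO, adjusted p = 0.1) and TFAP2A (0.142 and 0.819 CPM in WT and 0.494 and 0.36 CPM in KO, adjusted p = 0.92) were low in all 4 libraries. The summed level of the class was 118 to 149.7 CPM in WT and 489 to 528 CPM in KO.

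Endothelial genes had 6 of 11 raised and 1 lowered, with 3 raised when the spread was estimated over all 10 libraries. TIE1, an endothelial receptor kinase, stood at 0.521 and 0.409 CPM in WT and 11.8 and 14.9 CPM in KO (log2 fold change 4.82 ± 0.33, adjusted p = 0.00015), and FLT1, a VEGF receptor, at 0.521 and 0.307 CPM in WT and 8.1 and 6.08 CPM in KO (log2 fold change 4.07 ± 0.41, adjusted p = 0.00068). Both were low in absolute level even in KO. Of other defining genes of endothelium, CDH5, the endothelial cadherin, rose (0.805 and 6.71 CPM in WT and 22.8 and 37.5 CPM in KO; log2 fold change 3.02 ± 0.75, adjusted p = 0.023), as did VWF, a clotting factor carrier (1.09 and 2.51 CPM in WT and 5.33 and 5.86 CPM in KO; log2 fold change 1.64 ± 0.43, adjusted p = 0.029), while KDR, a VEGF receptor, fell (22.3 and 111 CPM in WT and 13.3 and 11.9 CPM in KO; log2 fold change -2.40 ± 0.64, adjusted p = 0.031). These 3 lost their calls without either KO library. CDH5 and KDR also lost theirs under DESeq2 and a robust fit, KDR under voom as well, and VWF in the fit over 10 libraries. TEK (24.4 and 55.3 CPM in WT and 34.2 and 44.7 CPM in KO, adjusted p = 0.98) and CLDN5 (0.568 and 0.614 CPM in WT and 0.247 and 0.405 CPM in KO, adjusted p = 0.42) were not called, and PECAM1 and SOX18 are not listed in the table used here. The summed level of the class was 56.4 and 183 CPM in WT and 118 and 146 CPM in KO, so that the groups overlapped. Epithelial genes had 5 of 19 raised and 4 lowered, the former 3 without either KO library. KRT18, a keratin of simple epithelia, rose from 212 and 117 CPM to 703 and 793 CPM (log2 fold change 2.19 ± 0.26, adjusted p = 0.0012), and KRT7 from 0.284 and 0.154 CPM to 11.4 and 7.07 CPM (log2 fold change 5.35 ± 0.47, adjusted p = 0.0004). The defining epithelial genes EPCAM (3.83 and 2.66 CPM in WT and 2.27 and 2.12 CPM in KO, adjusted p = 0.28) and CDH1 (0.0473 and 0 CPM in WT and 0.0494 and 0.225 CPM in KO, adjusted p = 0.37) were not called.

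Among markers of the starting stem cells, 3 of 9 pluripotency genes were lowered and 1 raised. LIN28A, an RNA-binding protein of stem cells and early neuroepithelium, fell from 63.7 and 84.7 CPM to 1.14 and 1.85 CPM (log2 fold change -5.62 ± 0.27, adjusted p = 4.3e-05), and SALL4, a zinc finger factor, from 13.6 and 23.8 CPM to 2.03 and 1.53 CPM (log2 fold change -3.39 ± 0.35, adjusted p = 0.00074). NANOG, the defining factor, was at 0.237 and 0.154 CPM in WT and 0 and 0 CPM in KO, adjusted p = 0.11. Of 8 endoderm genes 1 was lowered, of 8 early mesoderm genes 1 was raised and 1 lowered, of 7 blood genes none was called, of 5 trophoblast and amnion genes 2 were lowered, the 1 HOX gene tested was not called, and of 10 astrocyte and oligodendrocyte genes 1 was raised. The early mesoderm class summed to 6.39 and 5.68 CPM in WT and 15.8 and 15.9 CPM in KO, of which TNNT2, cardiac troponin T, the raised member, made up 2.08 and 0.717 CPM in WT and 11.1 and 12.7 CPM in KO. The trophoblast and amnion class summed to 5.35 and 10.7 CPM in WT and 1.78 and 0.856 CPM in KO. The summed level over the 4 libraries was 13.1 to 16.9 CPM for the endoderm class and 2.96 to 4.02 CPM for blood genes, of which PTPRC, the defining marker, was at 0.71 and 0.0512 CPM in WT and 0.0988 and 0 CPM in KO, adjusted p = 0.24. What part such cells have in the raised and lowered classes was not tested.

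Of 379 genes tested in the general cell function group, 33 were raised (8.71%, against 8.45% of all tested genes) and 23 lowered (6.07%, against 8.36%). The interferon response class, described below, belongs to this group and held 19 of the 33 raised genes and none of the lowered. Of 83 cytoplasmic ribosomal protein genes 1 was raised, RPL22L1, a paralog of a large-subunit protein whose call was lost in the fit over 10 libraries, and none was lowered, with 18 below 0 at an unadjusted p below 0.05. Of 77 nuclear-encoded respiratory chain genes none was called by edgeR, DESeq2 or voom, and 12 above 0 and 3 below 0 had an unadjusted p below 0.05 in edgeR's test. Mitosis genes had 9 of 30 lowered and none raised, and all 30 fitted fold changes were below 0 (median -0.79). CENPF, a kinetochore protein, stood at 783 and 851 CPM in WT and 329.7 and 361 CPM in KO (log2 fold change -1.24 ± 0.11, adjusted p = 0.00035), and NEK2, a centrosomal kinase, at 101 and 75.9 CPM in WT and 32.4 and 30.7 CPM in KO (log2 fold change -1.49 ± 0.16, adjusted p = 0.00089). MKI67, the proliferation marker, was lower in both KO libraries (731 and 868 CPM in WT and 526 and 497 CPM in KO, adjusted p = 0.0071) without reaching 2-fold. The count of mitosis genes lowered was 3 without the WT library S3 and 28 when no fold threshold was set. S phase genes had a median of -0.58, with 1 of 31 lowered.

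Of 22 cholesterol synthesis genes 2 were lowered, HMGCS1 and TM7SF2, a sterol reductase (log2 fold change -1.85 ± 0.20, adjusted p = 0.00097), and 1 was raised. These counts are 9.09% lowered and 4.55% raised, near or under the shares over all tested genes, 8.36% and 8.45%. Of 20 glycolysis genes 2 were raised and 2 lowered (10% each), near the shares over all tested genes. In glycolysis, ENO2, the neuronal enolase, fell (51.8 and 40.2 CPM in WT and 15.9 and 17.7 CPM in KO; log2 fold change -1.46 ± 0.17, adjusted p = 0.0013) and SLC16A3, a lactate exporter, rose (2.84 and 1.38 CPM in WT and 17.5 and 16.6 CPM in KO; adjusted p = 0.0011), while GAPDH (6164 and 5524 CPM in WT and 4880.0 and 4872 CPM in KO, adjusted p = 0.1) was not called. Of 25 p53 targets 2 were raised and 3 lowered (8% and 12%), again near the shares over all tested genes. CDKN1A, the cell cycle inhibitor, was not called (129.9 and 178 CPM in WT and 207 and 215 CPM in KO, adjusted p = 0.07). Of 25 unfolded protein and heat shock genes 4 were raised and 1 lowered, HSP90B1, an endoplasmic reticulum chaperone, rising from 513 and 221 CPM to 1454 and 1703 CPM (log2 fold change 2.10 ± 0.35, adjusted p = 0.0049), a call that did not hold under a robust fit. Of 27 imprinted genes 4 were raised and 5 lowered, the latter 3 without the KO library S1 and 2 without S2. Beside IGF2, PHLDA2, a growth-restraining gene of placenta, rose (2.13 and 3.43 CPM in WT and 25 and 28.9 CPM in KO; log2 fold change 3.28 ± 0.27, adjusted p = 0.00031), and DLK1, a Notch-like surface protein, fell (20.1 and 69.7 CPM in WT and 3.46 and 1.49 CPM in KO; log2 fold change -4.19 ± 0.66, adjusted p = 0.0038), the latter not under a robust fit.

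Interferon response genes had 19 of 38 raised, none lowered and a median of 1.66. IRF1, a transcription factor of the response, stood at 2.75 and 2.56 CPM in WT and 22.8 and 23.3 CPM in KO (log2 fold change 3.12 ± 0.21, adjusted p = 0.00014). BST2, the membrane protein tetherin that holds back enveloped viruses, stood at 1.04 and 0.717 CPM in WT and 7.06 and 13.7 CPM in KO (log2 fold change 3.55 ± 0.44, adjusted p = 0.0014). SAMD9, an antiviral protein, stood at 0 and 1.07 CPM in WT and 21.3 and 23.9 CPM in KO (log2 fold change 5.42 ± 0.82, adjusted p = 0.0033), but its call did not hold under DESeq2 or a robust fit. WT libraries were at single-digit CPM for each and both KO libraries were higher. The levels in KO were nevertheless modest, and IFITM2, an interferon-induced membrane protein, was not called (140.1 and 202 CPM in WT and 276 and 233 CPM in KO, adjusted p = 0.056). The class summed to 674 and 829 CPM in WT and 1512 and 1573 CPM in KO. Of 15 members at 5 CPM or more in WT, 3 were more than 2-fold higher in S5 than in S3 and none the reverse.

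Many genes of this response carry an interferon-stimulated response element (ISRE), here searched on both strands as the letters GAAA, 2 further bases of any kind, and GAAA again. The 250 bases before the start of BST2 lie on the minus strand at hg19 chr19:17516440-17516689 by exact match, and are shown with the matches in capitals.
BST2: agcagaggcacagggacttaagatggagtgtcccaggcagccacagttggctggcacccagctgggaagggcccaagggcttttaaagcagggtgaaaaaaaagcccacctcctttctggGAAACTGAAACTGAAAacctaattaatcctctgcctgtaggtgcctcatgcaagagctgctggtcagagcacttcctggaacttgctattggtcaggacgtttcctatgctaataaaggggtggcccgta
It held 2 matches, 130 and 124 bases before the start, which overlap each other. Of 29 interferon response promoters 17 held a match, against 2.39% of all 12071, and 8 of those 17 belonged to raised genes, which had 14 promoters in all. The share was 3.45% over all raised genes and 2.18% over all lowered genes. The list gathers known interferon targets, so a high share of the element in it was given by its choice.

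A further 4 lists were drawn up after the values had been seen, so their counts, medians and levels are a description, with no p-value given. Genes of the dorsal telencephalon and cortical hem, the forebrain region that WNT8B marks, had 19 of 23 lowered and 1 raised, with a median of -6.73 (-4.58 with bounds), but voom called 9 lowered. Of 16 members at 5 CPM or more in WT, 6 were more than 2-fold higher in S3 than in S5 and 2 the reverse. FEZF2, a zinc finger factor of forebrain progenitors, stood at 43.8 and 56.8 CPM in WT and 0.0988 and 0 CPM in KO. LMO3, a LIM-only cofactor, stood at 23.6 and 15.4 CPM in WT and went uncounted in KO, a difference of at least 138-fold. SOX21, a SOXB2 factor, likewise had no read in KO, but its WT libraries were far apart, at 3.5 and 48.6 CPM, and the call did not hold under voom or a robust fit. WNT2B, another WNT ligand of the hem, was the raised member (11.8 and 43.5 CPM in WT and 222 and 217 CPM in KO; log2 fold change 2.99 ± 0.51), though not under a robust fit.

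Genes of motile cilia, the beating cilia of ependymal and choroid plexus cells, had 28 of 36 lowered and 1 raised (median -3.01, or -2.62 with bounds), and 15 lowered without either KO library. RFX4, a factor of the ciliary RFX family, stood at 25.7 and 20.4 CPM in WT and 0.148 and 0.0901 CPM in KO. RSPH4A, a radial spoke protein, stood at 15.4 and 5.17 CPM in WT and 0.395 and 0.135 CPM in KO (log2 fold change -5.27 ± 0.72), and FOXJ1, the master regulator of motile cilia, at 45.4 and 7.73 CPM in WT and 0.198 and 0.946 CPM in KO (log2 fold change -5.50 ± 0.99), the call of FOXJ1 not holding under voom or a robust fit. The WT libraries differed here. Of 20 members at 5 CPM or more in WT, 11 were more than 2-fold higher in S3 than in S5 and none the reverse. The class summed to 418 and 222 CPM in WT and 67.5 and 54.9 CPM in KO. DNAH11, a dynein heavy chain of outer arms, was the raised member (2.27 and 1.59 CPM in WT and 8.84 and 7.43 CPM in KO; log2 fold change 2.07 ± 0.32).

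Cytokine, chemokine and receptor genes had 20 of 38 raised and 2 lowered. IL4R, a cytokine receptor, stood at 9.04 and 10.5 CPM in WT and 191 and 169.5 CPM in KO (log2 fold change 4.20 ± 0.15). IL11, a cytokine of stromal cells, stood at 0.947 and 2 CPM in WT and 30.6 and 47.2 CPM in KO (log2 fold change 4.73 ± 0.38). STING1, a sensor adaptor of innate immunity, stood at 1.37 and 0.358 CPM in WT and 57.6 and 46.6 CPM in KO (log2 fold change 5.88 ± 0.43). CXCR4, a chemokine receptor of migrating progenitors, fell from 38.9 and 34.3 CPM to 0.494 and 0.27 CPM (log2 fold change -6.57 ± 0.29). Antigen presentation genes, which share members with the interferon class, had 12 of 20 raised and none lowered. Among members at 5 CPM or more in WT, 3 of 18 cytokine and 3 of 10 antigen presentation genes were more than 2-fold higher in S5 than in S3. None was the reverse. CD74, the chaperone of class II molecules, stood at 4.54 and 9.83 CPM in WT and 49.4 and 50.8 CPM in KO (log2 fold change 2.80 ± 0.33). The class I heavy chain gene HLA-C (56.2 and 55.5 CPM in WT and 75.2 and 89 CPM in KO) was not called, and reads of genes with near-identical relatives may be split by the counting of uniquely mapped reads.

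**Figure D4:**
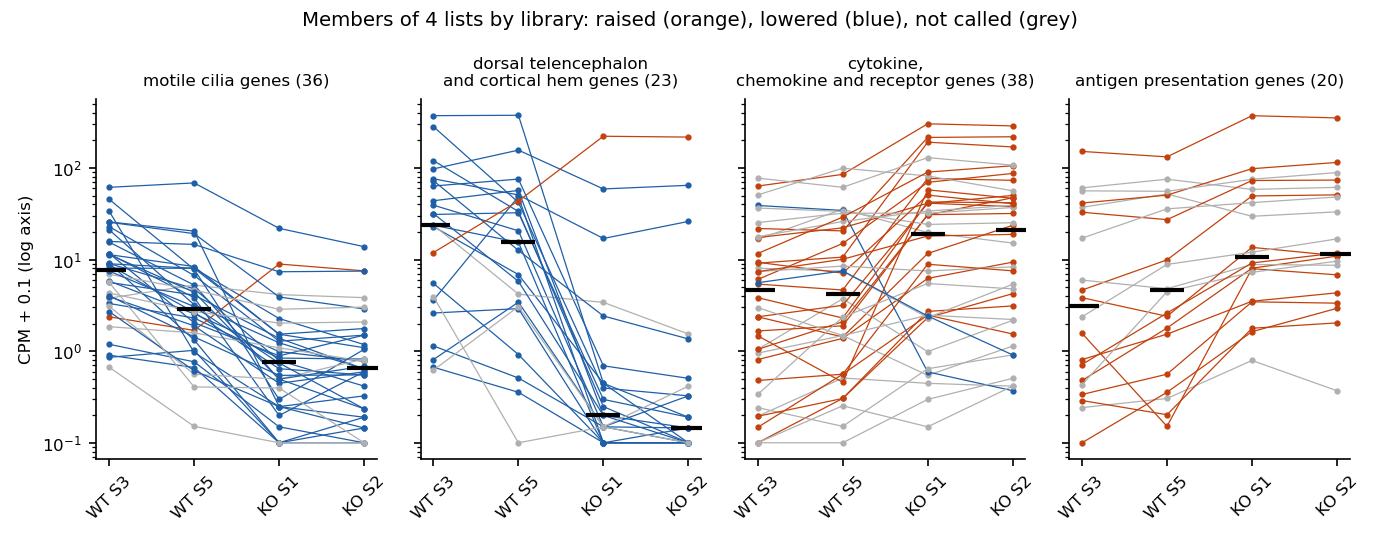
Each line is a gene and each point its level in a library (CPM + 0.1, log axis), with the libraries WT S3, WT S5, KO S1 and KO S2 along the x axis. Orange lines are raised genes, blue lines lowered genes and grey lines genes not called, and the black bars mark the median of the list in each library. The bars of the motile cilia and telencephalon lists drop from WT to KO, and those of the cytokine and antigen presentation lists climb.

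Outside protein-coding genes, 84 long noncoding RNA genes were raised and 195 lowered, of 2637 tested. LINC01833 (hg19 chr2:45148216-45166338, minus strand), which neighbours SIX3 (chr2:45168841-45173210, plus strand), stood at 31.6 and 39.7 CPM in WT and 0.0494 and 0 CPM in KO (adjusted p = 3.3e-05), and FEZF1-AS1, the antisense partner of the forebrain factor FEZF1, at 45.7 and 49.1 CPM in WT and 0.0494 and 0.27 CPM in KO (log2 fold change -8.12 ± 0.38, adjusted p = 3.7e-05). Both were near the floor in KO, as was SIX3 itself. DANCR and SNHG3, host genes of small nucleolar RNAs, fell by less (log2 fold change -1.49 ± 0.14, adjusted p = 0.00056 and log2 fold change -1.27 ± 0.17, adjusted p = 0.002). The largest rise in CPM was in ZNF542P, annotated as a transcribed pseudogene on chromosome 19 (31.6 and 31 CPM in WT and 164 and 153 CPM in KO; log2 fold change 2.34 ± 0.11, adjusted p = 4.3e-05). Among the other raised noncoding genes, CYTOR (12.6 and 14.7 CPM in WT and 44.1 and 39.7 CPM in KO; log2 fold change 1.62 ± 0.16, adjusted p = 0.00062) and MIR4435-2HG (30.9 and 33.9 CPM in WT and 81.6 and 70.7 CPM in KO; log2 fold change 1.23 ± 0.13, adjusted p = 0.00088) are near-identical copies of each other on chromosome 2, and ANXA2P2 (log2 fold change 1.82 ± 0.15, adjusted p = 0.00032) is a processed copy of ANXA2 that lost its call in the same fit over 10 libraries, so how reads were divided among them is uncertain.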

How the data were processed

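Poly(A) RNA from the 4 cultures had been sequenced as stranded TruSeq mRNA libraries. The authors mapped reads to hg19 with HISAT2 (strand-aware) and assigned the uniquely mapping ones by featureCounts to a joint annotation of genes and transposable elements, and they deposited raw counts per gene. Tool versions are not given in the sources used here. Genes with fewer than 4 counts over the 4 libraries (388 of 20965) were discarded. The rest were fitted with edgeR 4.0.16 in R 4.3.3 (TMM scaling, quasi-likelihood F-test, KO against WT, no covariate), with Benjamini-Hochberg adjustment over all 20577 genes, at an adjusted p below 0.05 and a fold change above 2. The script was tested on simulated counts first. CPM used the TMM-scaled library sizes. The total of 18621266 to 23035490 counts per library sets the precision, and floors cover counting error only. Gene types and positions came from GENCODE lifted to hg19 (20366 genes matched). Promoters came from RefSeq (GRCh38.p14), matched by symbol.

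The members, the 40 classes and the tests were chosen with earlier results of these data known, and 4 further lists after the values had been seen. Named genes were ZNF274, the 10 protein-coding genes with the largest rise and fall in mean CPM, in each class up to 5 called genes per direction with the largest fold change among those at 5 CPM or more in the higher group and the 2 most abundant uncalled genes, and the 5 noncoding genes with the largest rise and fall. Defining markers (SOX2, PAX6, NANOG, EPCAM, CDH1, FOXD3, TFAP2A and PTPRC) were added after values were seen. Protein motif families were not analysed here, and some genes that the rule names are not reported here. Alternatives were DESeq2 1.42.0, voom in limma 3.58.1, other scalings, filters and thresholds, a fit over all 10 libraries, and leaving out each library.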

Additional observations from a re-analysis of the deposited data

How the results depend on the processing

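DESeq2 called 1688 raised and 1626 lowered genes, of which 1652 and 1594 were shared with edgeR's 1738 and 1721, and voom called 1732 and 1536. Scaling by library totals alone gave 1553 and 1995 and so moved the balance toward lowered genes. An adjusted p below 0.01 left 1216 and 1009, and no fold threshold gave 3076 and 2812. No call of a named gene changed sign. Of the 250 called named genes, 7 lost their call under DESeq2, 17 under voom, 30 under a robust fit, 29 at an adjusted p below 0.01, 35 without the KO library S1, 26 without S2, 9 without the WT library S3 and 12 without S5, and with the spread estimated over all 10 libraries CCN2 and ANXA2 were among 11 of 247 that did. No paired analysis was made, because the labels do not say whether any WT library (S3, S5) shares a parental line or induction with a KO library (S1, S2). Leaving out a library leaves a lone sample in its group, which is then assumed to vary like the others.

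Not every class count above was recounted under the alternatives. Among those left out were pluripotency, glycolysis, cholesterol synthesis, p53 and unfolded protein genes. Lowered matrix proteases, lowered integrins and laminins, lowered epithelial genes and raised imprinted genes were also left out. The recounted classes that moved by over 1.5 times were as follows. The cause was not tested except where fewer genes could pass a changed threshold. Under voom, lowered proneural and Notch genes came to 3, proteoglycans to 3 and dorsal telencephalon genes to 9. With library totals alone, 3 synaptic genes were raised. With 10 libraries in a fit, lowered matrix glycoproteins came to 5, proteoglycans to 3 and imprinted genes to 3, and raised endothelial genes to 3. At an adjusted p below 0.01, lowered proneural and Notch genes came to 2, ion channels to 4, proteoglycans to 3, growth factors and receptors to 9, imprinted genes to 2 and motile cilia genes to 15, and raised synaptic genes to 3, ion channels to 4 and mesenchymal transcription factors to 13. Without a fold threshold, raised smooth muscle genes came to 17 and lowered mitosis genes to 28.

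With each library left out in turn, raised genes ranged from 1141 to 2011 and lowered genes from 943 to 2033. Lowered counts ranged from 2 to 7 for proneural and Notch genes, 4 to 10 for ion channels, 5 to 10 for collagens, 5 to 8 for matrix glycoproteins, 3 to 5 for proteoglycans, 9 to 16 for growth factors and receptors, 3 to 11 for mitosis genes, 2 to 7 for imprinted genes and 15 to 33 for motile cilia genes. Raised counts ranged from 2 to 4 for synaptic genes, 3 to 7 for ion channels, 6 to 13 for axon guidance genes, 14 to 26 for mesenchymal transcription factors, 4 to 8 for neural crest genes and 3 to 6 for epithelial genes. Of the 105 lowered genes of the neural group 82 to 98 were called again, and of the 179 raised genes of the mesenchymal and matrix group 143 to 178. The lower ends came from leaving out a KO library, except for mitosis genes, where it was the WT library S3.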
